A study of Mus musculus with 6 samples.

Results

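The TNF ligand and receptor superfamilies were taken as the genes whose symbol in the array table begins with Tnfsf, Tnfrsf or Tnfaip, together with Tnf, Lta, Ltb, Ltbr, Fas, Fasl, Cd40 and Cd27. These symbols matched 35 genes and 46 probes, of 17086 named genes and 23556 probes on the array. They comprise 11 ligands, 19 receptors and 5 TNF-alpha-induced (Tnfaip) genes.

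At 10 weeks of age, 3 db/db and 3 db/+ mice gave RNA from epididymal white adipose tissue, or eWAT, which lies along the epididymis. The db/db mice carry the db mutation of the leptin receptor on both chromosomes and are obese and hyperglycemic at this age, per the labels, while the db/+ mice carry it on 1 chromosome and are the lean controls. A single mouse was labelled in Cy5 on each 2-colour array and lean eWAT, pooled, in Cy3, with no dye swap. The file headers give vehicle treatment for every mouse, so both groups share it, while the pool has no header of its own. Which vehicle, which mice made up the pool and the strain background are not stated. The tissue was profiled whole, without a sort. The labels call the samples biological replicates.

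TNF superfamily ligands are trimeric proteins, on the cell surface or shed from it, that cluster receptors of the matching superfamily. Some of these receptors carry a death domain and can start apoptosis, while others recruit TRAF adaptors and activate NF-kappaB and MAP kinases. In obese adipose tissue Tnf, made largely by macrophages, is known for impairing insulin signalling in adipocytes, and the Tnfaip genes were named for their induction by TNF-alpha in cultured cells.

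Values are Cy5 intensities in the authors' arbitrary units and log2 ratios of the mouse over the lean pool on the same array. A positive log2 fold change means that the ratio was higher in db/db than in db/+ eWAT. A gene was called at an adjusted p under 0.05 (limma, Benjamini-Hochberg adjustment over 17024 genes). The probe intensities do not rank genes, since each probe has its own brightness.

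Between 23355 and 23506 probes had a value on each array, and the highest Cy5 intensity of an array lay between 26.85 and 30.5. Of the adipocyte marker list, 11 of 12 genes were tested and 7 were lower in db/db eWAT, with a summed Cy5 intensity of 36.5 to 55.2 in db/db and 112 to 120 in db/+ mice, and 1 of them, Pnpla2, stayed at or below 0.1 on every array. Of the macrophage list, 10 of 12 genes were tested and 3 were higher and 0 lower, with a summed intensity of 38.3 to 81.7 in db/db and 26.0 to 36.5 in db/+ mice. Of the epididymis epithelium list, 12 of 13 were tested and 1 was higher (Cst8, which had values on only 4 arrays), with a summed intensity of 1.56 to 171 in db/db and 1.52 to 13.3 in db/+ mice. The arrays differed widely in these markers: the median log2 ratio of that list stood at -1.81 for db/db replicate 1 and at 3.84 and 3.94 for the other db/db replicates, beside 0.72, 0.05 and -1.82 for the db/+ replicates. In the T cell list 7 of the 10 genes tested, among them Cd3e, Cd3d, Cd3g and Cd8a, stayed at or below 0.1 on every array.

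In db/db eWAT 1 member rose, the receptor Tnfrsf12a, and 1 fell, the ligand Tnfsf10, while the other 33 did not pass the test. That is 5.71% of the members, against 6.68% of all genes tested, so the share called was near the background. Called upward were 1 of 35 members and 2.92% of all genes, and called downward 1 of 35 and 3.77%. The log2 fold changes of the members ran from -0.95 to 1.13 with a median of 0.00, of which 17 were positive, 17 negative and 1 was 0. The median absolute log2 fold change was 0.19 for the members and 0.19 for all genes. In 8 members, or 22.9%, the ratios of the 3 db/db mice did not overlap those of the 3 db/+ mice, against 26.1% of the genes measured on all arrays. Of these 8, Tnfrsf12a, Tnfaip2, Tnfrsf13b and Ltbr lay higher in db/db (background 11.4%), and Tnfsf10, Fas, Cd27 and Tnfaip1 lay lower (background 14.7%). A log2 fold change of at least 1 in either direction was measured in 2 of 35 members, Tnfrsf12a and Tnfrsf19, and in 6.05% of all genes. At an unadjusted p under 0.05 the counts were 9 of 35 members and 23.2% of all genes.

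**Figure D1:**
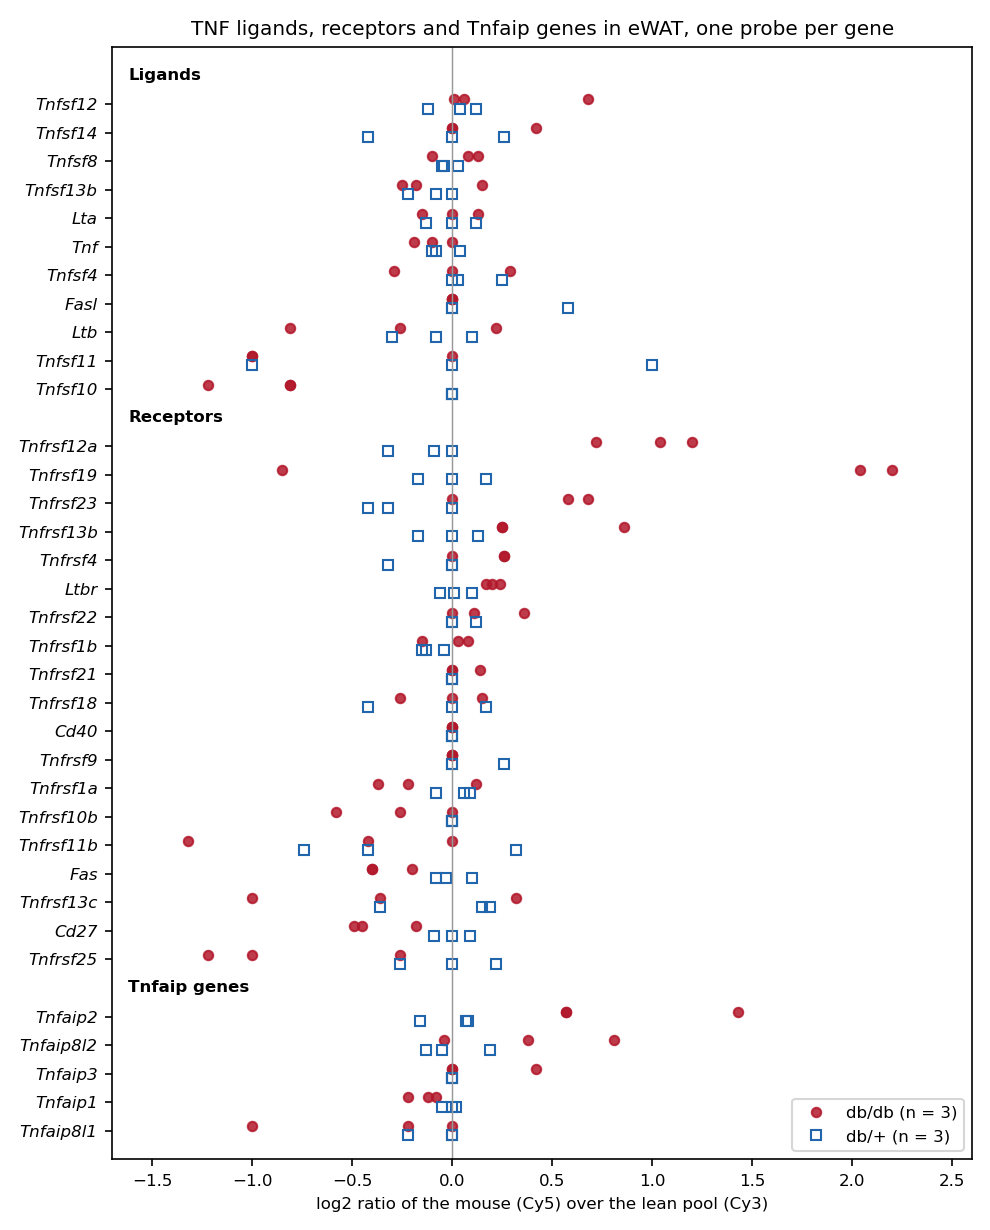
Log2 ratio of each mouse over the lean pool (x axis) for the 35 members (rows, in 3 classes, each sorted by log2 fold change), with filled red points for 3 db/db and open blue squares for 3 db/+ mice. The db/db points of Tnfrsf12a lie to the right of its db/+ points and those of Tnfsf10 to the left, while most members have overlapping groups and the db/db points of Tnfrsf19 reach from -0.85 to 2.20.

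Many members were dim, which limits how finely their ratios can be read. The deposited intensities move in steps of 0.01, and 16 of the 35 members stayed at or below 0.1 on all 6 arrays. Ratios of exactly 0 in such members are equal rounded intensities. In whole tissue, fewer cells of a type and less RNA per cell cannot be told apart.

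Promoter sequence is shown for both called members and, because they are textbook targets of TNF-alpha, for Tnfaip2 and Tnfaip3. RefSeq on build GRCm38.p6 gave 34 windows, running from 250 bases before to 50 bases after a start, for 29 of the members. The 250 bases before the start are printed 5′ to 3′ on the gene's strand, and the capitals mark matches, on either strand, to the NF-kappaB (kappaB) consensus or to the AP-1 motif TGANTCA. The Tnfrsf12a stretch is chr17:23677450-23677699 (minus strand), that of Tnfsf10 chr3:27316827-27317076 (plus strand), that of Tnfaip2 chr12:111442411-111442660 (plus strand), and that of Tnfaip3 chr10:19015411-19015660 (minus strand). Tnfaip3 has another start, whose window held no match.
Tnfrsf12a: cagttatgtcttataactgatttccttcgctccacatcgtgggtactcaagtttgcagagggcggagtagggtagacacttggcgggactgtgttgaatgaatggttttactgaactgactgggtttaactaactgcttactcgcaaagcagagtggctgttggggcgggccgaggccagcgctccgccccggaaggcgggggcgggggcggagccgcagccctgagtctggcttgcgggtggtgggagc
Tnfsf10: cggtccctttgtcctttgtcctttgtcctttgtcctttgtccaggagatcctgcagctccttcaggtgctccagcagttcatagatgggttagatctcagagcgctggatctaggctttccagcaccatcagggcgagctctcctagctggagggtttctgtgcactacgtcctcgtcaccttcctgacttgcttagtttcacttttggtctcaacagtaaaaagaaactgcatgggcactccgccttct
Tnfaip2: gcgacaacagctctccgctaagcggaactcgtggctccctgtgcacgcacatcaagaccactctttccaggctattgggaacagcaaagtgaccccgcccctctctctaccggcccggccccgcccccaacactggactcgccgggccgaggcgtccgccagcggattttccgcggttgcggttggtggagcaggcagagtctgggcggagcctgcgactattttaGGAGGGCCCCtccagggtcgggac
Tnfaip3: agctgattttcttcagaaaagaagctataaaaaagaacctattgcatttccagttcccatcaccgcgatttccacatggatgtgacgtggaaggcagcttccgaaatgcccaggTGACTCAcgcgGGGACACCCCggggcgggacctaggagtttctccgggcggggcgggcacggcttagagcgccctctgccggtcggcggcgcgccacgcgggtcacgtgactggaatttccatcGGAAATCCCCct
The Tnfaip2 window held 1 kappaB match, from base 227. The Tnfaip3 window held kappaB matches from bases 126 and 239 and an AP-1 match from base 115, none of which overlap. The windows of Tnfrsf12a and Tnfsf10 held neither motif. A kappaB match stood in a window of 6 of the 29 members (20.7%), against 9.55% of 27025 genes with a window, and an AP-1 match in 5 of 29 (17.2%), against 8.97%. By window, 8.46% of all 32851 held a kappaB match and 7.81% an AP-1 match.

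Among the 11 ligands, 0 rose and 1 fell, Tnfsf10 (limma), or 9.09% against 6.68% of all genes. The counts were also 0 and 1 at an unadjusted p under 0.05, which 23.2% of all genes reached. The median log2 fold change over the class was -0.05. Tnfsf10 encodes TRAIL, which binds death receptors and can trigger apoptosis. Its Cy5 intensities were 0.03, 0.04 and 0.04 in db/db eWAT, against 0.07, 0.08 and 0.08 in db/+ eWAT. The log2 ratios were -1.22, -0.81 and -0.81 in db/db mice and 0.00 in each db/+ mouse. All 3 db/db mice therefore lay below all 3 db/+ mice. The log2 fold change was -0.95 ± 0.13 (SE; limma adjusted p = 0.0281). The probe read only 3 to 8 steps of 0.01, and intensities anywhere within their steps allow a log2 fold change between -1.45 and -0.46. Over the 14 alternative settings that keep at least 2 arrays per group, the log2 fold change of Tnfsf10 ran from -1.05 to -0.67 and its adjusted p from 0.00606 to 0.159, past the threshold in 7. The lowest adjusted p, without db/db replicate 3, compared ratios of -0.81 and -0.81 with 0.00 in each db/+ mouse, so it rests on no measured spread. The series matrix values, the fit of every probe and the fit without the dimmest 25% reused the main ratios of Tnfsf10 (-0.95). The db/+ ratios, all 0.00 on the rounded scale, leave the spread among db/+ mice unmeasured. The call was lost under quantile normalization (adjusted p = 0.1), the replicate block (0.159) and the epididymis covariate (0.0637), without db/db replicate 2 (0.0702) and without db/+ replicate 1, 2 or 3 (0.106, 0.112 and 0.132). The summed endothelial markers, with 1 of 8 tested genes lower, read 8.15 to 15 in db/db and 16.6 to 22.4 in db/+ mice, the summed adipocyte markers were lower as given above, and the part of either in the Tnfsf10 result was not tested.

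Tnf itself, the founding ligand, gave different readings from its 3 probes. On the brightest probe, which represented the gene, the Cy5 intensities were 0.63, 0.83 and 0.85 in db/db mice and 0.74, 1.13 and 0.88 in db/+ mice, and the groups overlapped. On a dimmer probe they were 0.14, 0.13 and 0.23 in db/db mice and 0.10, 0.12 and 0.10 in db/+ mice, and every db/db mouse lay above every db/+ mouse. The log2 fold changes were -0.05 ± 0.07 for the brightest probe and 0.75 ± 0.20 for the dimmer one, and neither passed the test when every probe was fitted (limma adjusted p = 0.667 and 0.110), a fit that called 5.44% of 23450 probes. The remaining Tnf probe read 0.01 to 0.02 on every array, with all ratios at 0.00. The array table gives the same transcript for all 3 probes, so they do not tell apart transcripts of Tnf.

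Tnfsf12, which encodes TWEAK, the ligand of the Tnfrsf12a receptor, had the brightest ligand probe. Its Cy5 intensities were 5.66, 5.30 and 9.47 in db/db mice and 5.25, 6.35 and 5.16 in db/+ mice. A single db/db mouse was high and the other two lay within the db/+ range. The log2 fold change was 0.24 ± 0.21 (limma adjusted p = 0.551). Ltb and Lta encode the chains of the lymphotoxin ligands and lie on either side of Tnf on chromosome 17 without another protein-coding gene between. Ltb had log2 ratios of 0.22, -0.26 and -0.81 in db/db mice and -0.30, 0.10 and -0.08 in db/+ mice, which overlapped (log2 fold change -0.19 ± 0.29, adjusted p = 0.736). Lta had Cy5 intensities of 0.09, 0.11 and 0.12 in db/db mice and 0.11, 0.13 and 0.11 in db/+ mice, with a log2 fold change of -0.01 ± 0.10 on that probe and of 0.19 and 0.32 on its dimmer probes.

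Other ligands were at the edge of what the scale resolves. Fasl, the ligand of the Fas death receptor, read 0.02, 0.02 and 0.03 in db/db mice and 0.02, 0.03 and 0.03 in db/+ mice. Tnfsf11, which drives osteoclast formation, read 0.02, 0.01 and 0.01 in db/db mice and 0.01, 0.03 and 0.02 in db/+ mice. Intensities this low allow a log2 fold change of Tnfsf11 anywhere between -2.73 and 1.18, so no difference was detectable. Tnfsf4, Tnfsf8, Tnfsf13b and Tnfsf14, ligands that act on lymphocytes, had log2 fold changes between -0.09 and 0.19, and none passed the test. Tnfsf8 was among the 4 members whose probes differed in sign, with 0.06 on its brighter and -0.05 on its dimmer probe, the others being Tnf, Lta and Ltbr.

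**Figure D2:**
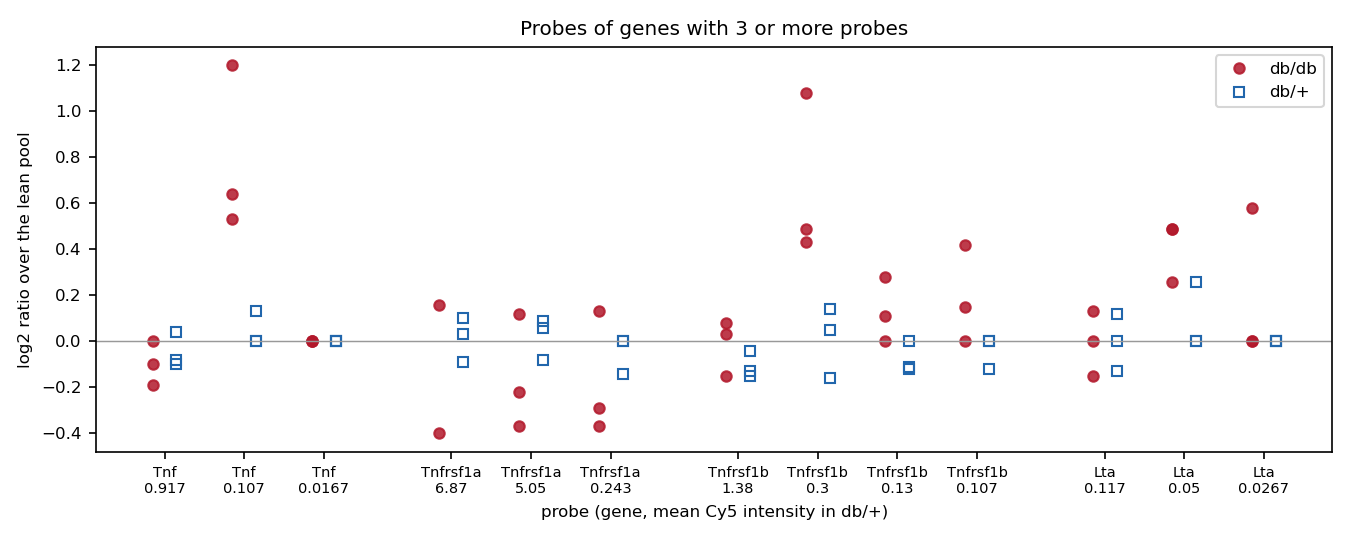
Log2 ratio over the lean pool (y axis) for each probe of Tnf, Tnfrsf1a, Tnfrsf1b and Lta (x axis, with the probe's mean Cy5 intensity in db/+ mice under its gene), in 3 db/db (filled red) and 3 db/+ mice (open blue squares). The db/db points stand above the db/+ points on 1 dim Tnf probe and on 1 Tnfrsf1b probe, while on the brighter probe of each gene they overlap; 1 Tnfrsf1a probe has no value on 1 db/db array.

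Among the 19 receptors, 1 rose, Tnfrsf12a, and 0 fell (limma), or 5.26% against 6.68% of all genes. At an unadjusted p under 0.05 the counts were 3 and 3, and 23.2% of all genes reached that level in either direction. The median log2 fold change of the receptors was 0.04. Tnfrsf12a encodes Fn14, a small receptor without a death domain that is known to be induced by growth factors and tissue injury. Its Cy5 intensities were 0.33, 0.28 and 0.39 in db/db mice, against 0.15, 0.16 and 0.12 in db/+ mice. The lowest db/db mouse lay well above the highest db/+ mouse. The log2 ratios averaged 0.99 ± 0.24 in db/db and -0.14 ± 0.17 in db/+ mice (SD, n = 3 each). The log2 fold change was 1.13 ± 0.16, or 2.18-fold (limma adjusted p = 0.0290), and lay between 0.96 and 1.29 for any intensity within its steps. Over the 14 alternative settings that keep at least 2 arrays per group, the log2 fold change of Tnfrsf12a ran from 0.99 to 1.26 and its adjusted p from 0.0187 to 0.189, past the threshold in 6. Series matrix values, the fit of every probe and the fit without the dimmest 25% reused the main ratios of Tnfrsf12a (1.13). The call was lost under quantile normalization (adjusted p = 0.189), the replicate block (0.170) and the epididymis covariate (0.0566), without db/db replicate 2 or 3 (adjusted p = 0.0506 and 0.0870) and without db/+ replicate 1, 2 or 3 (0.106, 0.0991 and 0.127). The summed macrophage markers were also higher in db/db eWAT, as given above, but the list was not uniform. Gpnmb alone read 19.0, 15.36 and 28.69 in db/db mice and 1.39, 1.28 and 0.99 in db/+ mice. Of the 10 genes tested 3 were called higher, while Cd163 lay lower without overlap (log2 fold change -0.82, limma adjusted p = 0.09). Csf1r, Mertk and Mrc1 had overlapping groups (0.30, 0.13 and 0.13). The part of these markers in the Tnfrsf12a result was not tested.

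**Figure D3:**
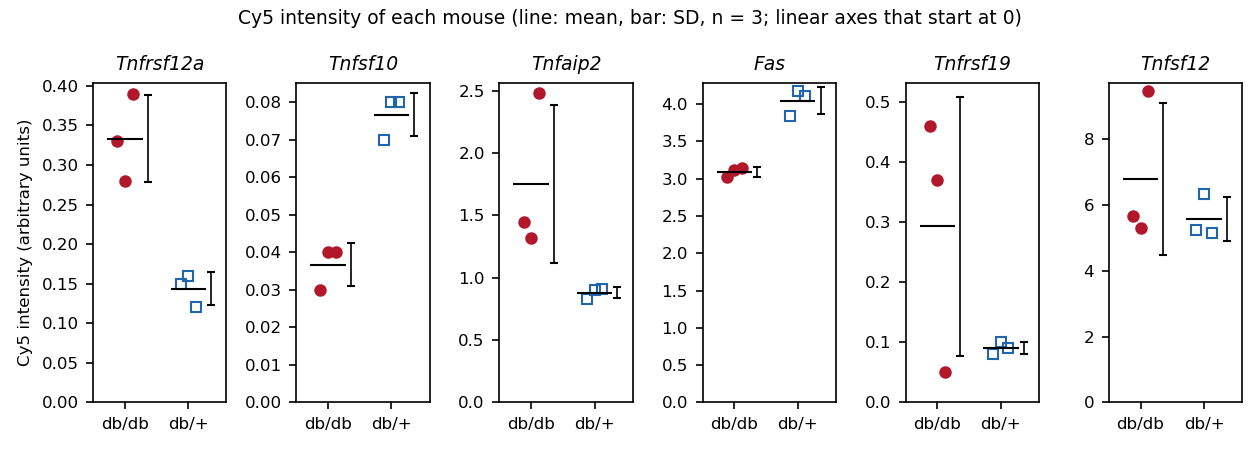
Cy5 intensity in the authors' arbitrary units (y axes, linear and starting at 0, each panel with its own scale) of each db/db (filled red) and db/+ mouse (open blue squares) for 6 members, with a line at the mean and a bar for the SD (n = 3). The groups stand apart for Tnfrsf12a, Tnfsf10, Tnfaip2 and Fas, while 1 db/db mouse lies apart from the other two for Tnfrsf19 and Tnfsf12.

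Neither receptor of Tnf passed the test. Tnfrsf1a, the broadly expressed death-domain receptor of Tnf, had Cy5 intensities of 4.0, 4.28 and 5.48 in db/db mice and 4.72, 5.21 and 5.23 in db/+ mice, which overlapped. Its log2 fold change was -0.18 ± 0.14 (limma adjusted p = 0.532), and its other probes gave -0.13 and -0.13, 1 of them fitted without 1 db/db array that had no value. Tnfrsf1b, the Tnf receptor found mainly on leukocytes and endothelium, had 0.99, 1.73 and 1.85 in db/db mice and 1.11, 1.29 and 1.74 in db/+ mice on its brightest probe (log2 fold change 0.09 ± 0.07, adjusted p = 0.537). A dimmer Tnfrsf1b probe read 0.42, 0.47 and 0.70 in db/db mice and 0.26, 0.33 and 0.31 in db/+ mice, without overlap. On it the log2 fold change was 0.66 ± 0.21 and did not pass the test (adjusted p = 0.167 with every probe fitted), and the remaining probes gave 0.20 and 0.23.

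Fas, a death receptor that kills cells bound by Fasl, was close to the threshold without passing it. Its Cy5 intensities were 3.02, 3.11 and 3.14 in db/db mice and 3.84, 4.18 and 4.11 in db/+ mice. Every db/db mouse lay below every db/+ mouse, and the log2 fold change was -0.33 ± 0.08 (limma adjusted p = 0.0873). Ltbr, the receptor of membrane-bound lymphotoxin, is the brightest member probe, at 16.67, 15.09 and 16.98 in db/db mice and 16.16, 13.93 and 11.97 in db/+ mice. Its ratios were 0.17, 0.20 and 0.24 in db/db mice and 0.10, 0.01 and -0.06 in db/+ mice. They did not overlap, the log2 fold change was 0.19 ± 0.05 (adjusted p = 0.125), and its dimmer probe gave -0.09. Cd27, a costimulatory receptor of T cells, had ratios of -0.18, -0.49 and -0.45 in db/db mice and -0.09, 0.09 and 0.00 in db/+ mice, without overlap (-0.37 ± 0.10, adjusted p = 0.112). The summed T cell markers read 0.75 to 0.91 in db/db and 0.90 to 1.24 in db/+ mice. Much of that sum was Cd2, at 0.42, 0.45 and 0.32 in db/db mice and 0.49, 0.64 and 0.67 in db/+ mice. The median log2 fold change of the T cell list was 0.00, with 0 genes called. The part of these markers in the Cd27 values was not tested. Cd27, Ltbr and Tnfrsf1a lie in that order on chromosome 6 with 1 protein-coding gene between each pair, and their log2 fold changes were -0.37, 0.19 and -0.18.

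Tnfrsf19, Tnfrsf23 and Tnfrsf25 each split the db/db mice. Tnfrsf19, also called TROY and known from skin and brain, had the same log2 fold change as Tnfrsf12a, 1.13, but with an SE of 0.91 (limma adjusted p = 0.534). By numbered replicate its log2 ratios were -0.85, 2.04 and 2.20 in db/db replicates 1, 2 and 3, against -0.17, 0.00 and 0.17 in db/+ replicates 1, 2 and 3. Replicate 1 was thus the lowest of the 6 mice and the other db/db mice were the highest. Tnfrsf23, a mouse decoy receptor for Tnfsf10, had 0.00, 0.58 and 0.68 in db/db replicates 1, 2 and 3, against -0.42, -0.32 and 0.00 in db/+ replicates 1, 2 and 3. Tnfrsf25, the death-domain receptor DR3, had -0.26, -1.0 and -1.22 in db/db replicates 1, 2 and 3, against -0.26, 0.00 and 0.22 in db/+ replicates 1, 2 and 3. In all 3 genes db/db replicate 1 lay closest to the db/+ mice or beyond them. With all arrays, Tnfrsf23 (0.67 ± 0.23, adjusted p = 0.168) and Tnfrsf25 (-0.81 ± 0.29, adjusted p = 0.190) did not pass the test. Both were dim, with Cy5 intensities of 0.03 to 0.08 for Tnfrsf23 and of 0.03 to 0.07 for Tnfrsf25. Intensities within their steps of 0.01 allow a log2 fold change of 0.00 to 1.35 for Tnfrsf23 and of -1.38 to -0.27 for Tnfrsf25.

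The epididymis markers split the same db/db arrays, with list medians of -1.81 in db/db replicate 1 and of 3.84 and 3.94 in db/db replicates 2 and 3. In db/+ replicates 1, 2 and 3 the list medians fell, at 0.72, 0.05 and -1.82. Over those db/+ replicates the ratios of Tnfrsf19, Tnfrsf23 and Tnfrsf25 rose, but the intensities differed by few steps of 0.01. In db/+ replicates 1, 2 and 3 they were 0.08, 0.10 and 0.09 for Tnfrsf19 and 0.03, 0.04 and 0.04 for Tnfrsf23. For Tnfrsf25 they were 0.05, 0.07 and 0.07. At this level no trend over the db/+ mice can be read. Among the epididymis markers Gpx5, a secreted epididymal peroxidase, read 25.91, 30.2 and 0.33 in the 3 db/db mice and 6.91, 3.2 and 0.14 in the 3 db/+ mice. Without db/db replicate 1 the log2 fold changes were 2.12 for Tnfrsf19 (limma adjusted p = 0.00706), 0.88 for Tnfrsf23 (0.0353) and -1.10 for Tnfrsf25 (0.0326), all past the threshold, and 6 members (17.1%) were called beside 20.2% of all genes. The 3 genes are set together here because they split the db/db mice. Leaving out the array that stood apart is therefore no separate test of them. With db/db replicate 1 as the only db/db array, Tnfrsf19 stood at -0.85. Another fit kept all arrays and took the median ratio of the epididymis markers as a covariate. Its log2 fold changes were 0.12 for Tnfrsf19 (limma adjusted p = 0.947), 0.50 for Tnfrsf23 (0.313) and -0.46 for Tnfrsf25 (0.0879), none past the threshold. The covariate was highest in db/db replicates 2 and 3, so on 6 arrays it cannot be fully separated from genotype.

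**Figure D4:**
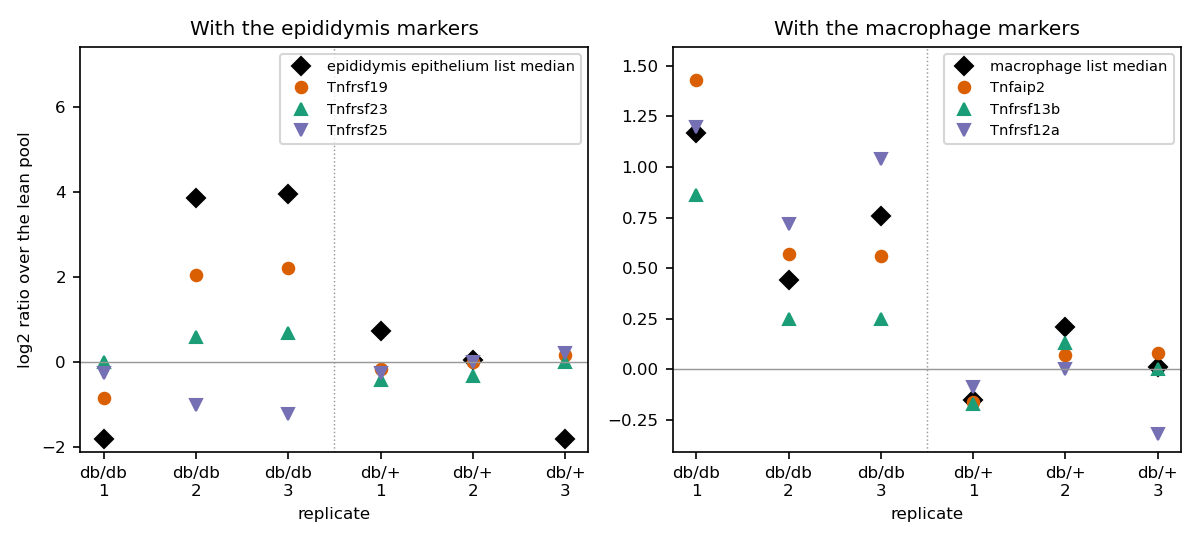
Log2 ratio over the lean pool (y axes, separate scales) by numbered replicate of 3 db/db and then 3 db/+ mice, with the median of the epididymis epithelium list and Tnfrsf19, Tnfrsf23 and Tnfrsf25 in the left panel, and the median of the macrophage list and Tnfaip2, Tnfrsf13b and Tnfrsf12a in the right panel. On the left, db/db replicate 1 stands apart from replicates 2 and 3; on the right, db/db replicate 1 has the highest value of each series.

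None of the remaining receptors passed the test. Tnfrsf13b, known as TACI and a receptor of Tnfsf13b on B cells, had ratios of 0.25, 0.25 and 0.86 in db/db mice and -0.17, 0.13 and 0.00 in db/+ mice, without overlap (log2 fold change 0.47 ± 0.20, limma adjusted p = 0.259). The summed B cell markers read 1.47 to 2.57 in db/db and 1.03 to 1.56 in db/+ mice, and their part in the Tnfrsf13b values was not tested. Cd40, a costimulatory receptor of antigen-presenting cells, read 0.03, 0.04 and 0.04 in db/db mice and the same in db/+ mice, with every ratio at 0.00. Tnfrsf10b, the death receptor of Tnfsf10, had ratios of -0.58, -0.26 and 0.00 in db/db mice and 0.00 in each db/+ mouse (-0.28 ± 0.16, adjusted p = 0.355). Tnfrsf11b, or osteoprotegerin, a secreted decoy for Tnfsf11 and Tnfsf10, gave -0.30 ± 0.46. Tnfrsf4 and Tnfrsf18, T cell costimulators that are neighbours on chromosome 4, gave 0.28 and 0.04, and Tnfrsf22 and Tnfrsf23, neighbouring decoy receptors on chromosome 7, gave 0.12 and 0.67. Tnfrsf9, Tnfrsf13c and Tnfrsf21 had log2 fold changes between -0.34 and 0.05.

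In no ligand and receptor pair did both sides pass the test. For TWEAK and Fn14, the receptor Tnfrsf12a rose while the ligand Tnfsf12 did not pass the test. For TRAIL, the ligand Tnfsf10 fell while its receptor Tnfrsf10b, at 0.02 to 0.05 on every array, did not pass the test. For Fas and Fasl, and for Tnf with Tnfrsf1a and Tnfrsf1b, neither side passed it. Intensities within their steps allow a log2 fold change of -1.08 to 0.50 for Tnfrsf10b and of -1.47 to 1.06 for Fasl. A change in either of these dim partners could therefore have gone unseen.

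None of the 5 Tnfaip genes passed the test (limma). In 2 of the 5, Tnfaip2 and Tnfaip1, the groups did not overlap, against 26.1% of the genes measured on all arrays. The same 2 had an unadjusted p under 0.05 (limma), against 23.2% of all genes. Tnfaip2 had Cy5 intensities of 1.45, 1.32 and 2.48 in db/db mice, against 0.83, 0.90 and 0.91 in db/+ mice. Every db/db mouse was higher, and 1 of them stood well above the others. By numbered replicate the log2 ratios were 1.43, 0.57 and 0.56 in db/db replicates 1, 2 and 3, against -0.16, 0.07 and 0.08 in db/+ replicates 1, 2 and 3. The log2 fold change was 0.86 ± 0.27, or 1.82-fold (adjusted p = 0.148). Tnfaip2 passed the threshold without db/db replicate 1, where the spread among db/db mice is smaller (0.57, adjusted p = 0.0325). The macrophage list had a median ratio of 1.17 in db/db replicate 1, of 0.44 in replicate 2 and of 0.76 in replicate 3, and its part in the Tnfaip2 values was not tested.

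Tnfaip3 encodes A20, a ubiquitin-editing enzyme that restrains NF-kappaB and is itself an NF-kappaB target. It read 0.02, 0.03 and 0.04 in db/db mice and 0.02, 0.02 and 0.03 in db/+ mice. At this level a log2 fold change anywhere between -1.06 and 1.34 is allowed, so no difference was detectable (0.14 ± 0.13, limma adjusted p = 0.551). Tnfaip1, an adaptor of a cullin ubiquitin ligase, was bright, at 6.89, 5.52 and 6.93 in db/db mice and 7.36, 7.35 and 6.10 in db/+ mice. Its ratios were -0.12, -0.22 and -0.08 in db/db mice and -0.05, 0.00 and 0.02 in db/+ mice, a log2 fold change of -0.13 ± 0.05 (adjusted p = 0.215). Tnfaip8l2, an inhibitor of immune-cell activation, gave 0.38 ± 0.24 and Tnfaip8l1 gave -0.33 ± 0.29, with overlapping groups in both.

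Of 46 genes listed for signalling by TNF receptors (adaptors, ubiquitin ligases, kinases and NF-kappaB subunits and inhibitors), 43 were tested. Of these, 2 rose and 1 fell, or 6.98%, against 6.68% of all genes. In 11 genes, or 25.6%, the groups did not overlap, against 26.1% of the genes measured on all arrays. Of the 43, 8 lay higher in db/db (background 11.4%) and 3 lower (background 14.7%). The log2 fold changes ran from -0.59 to 0.50 with a median of 0.01.

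Sharpin, a subunit of the complex that assembles linear ubiquitin chains at the Tnfrsf1a receptor, rose by 0.22 ± 0.03 (limma adjusted p = 0.0326). Its ratios were 0.28, 0.21 and 0.23 in db/db mice and 0.01, 0.03 and 0.02 in db/+ mice. Tbk1, a kinase of the IKK family, rose by 0.32 ± 0.06 (adjusted p = 0.0491), with ratios of 0.32, 0.24 and 0.32 in db/db mice and -0.13, 0.01 and 0.04 in db/+ mice. Map3k5, known as ASK1, a kinase upstream of JNK and p38, fell by 0.41 ± 0.08 (adjusted p = 0.0488), with ratios of -0.58, -0.47 and -0.34 in db/db mice and 0.00, -0.06 and -0.10 in db/+ mice. In each of these genes the groups stood apart, and the changes were under 1.5-fold. Tab3, an adaptor of the kinase Map3k7, just missed the threshold at -0.59 ± 0.11 (adjusted p = 0.0516). The calls also changed with the processing. Loess called only Tab3 (2.33% of the list, against 7.0% of all genes). Leaving out the dimmest 25% of genes called Map3k5 and Tab3 (4.76%, against 11.7%). Fitting every probe called only Sharpin (2.33%, against 5.44% of all probes). Tbk1 was called in no alternative other than the series matrix values. When an array was left out, 6 of 43 (14%, against 20.2% of all genes) were called without db/db replicate 1, 1 of 43 (2.33%, against 3.4%) without db/db replicate 3, and 0 without db/db replicate 2 or any 1 of the db/+ replicates.

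**Figure D5:**
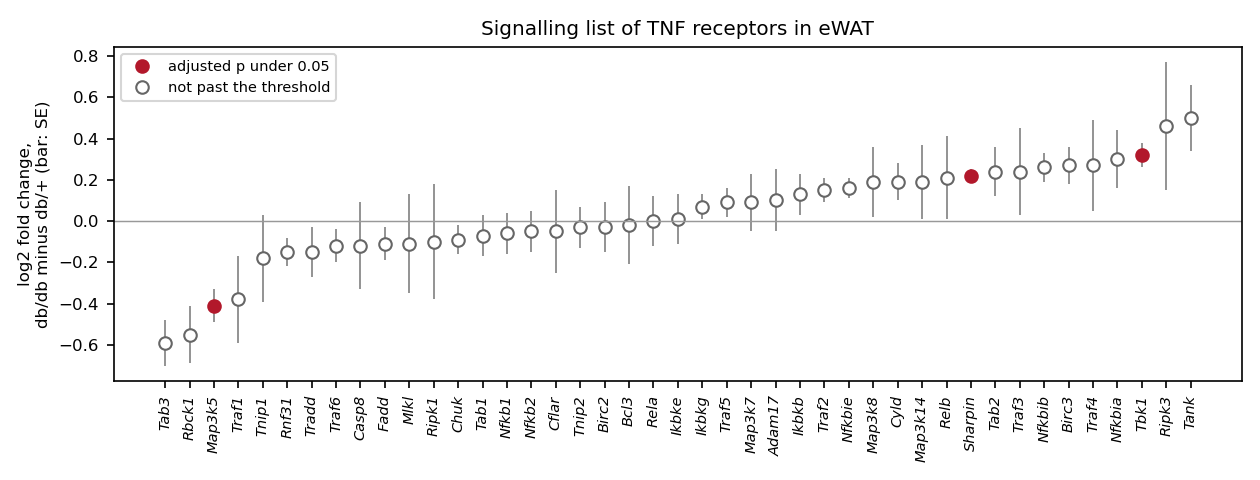
Log2 fold change, db/db minus db/+ (y axis, bars for the SE), of the 43 tested genes of the signalling list (x axis, sorted), with filled red points for genes past the threshold and open points for the others. The points spread from -0.59 for Tab3 to 0.50 for Tank around a median of 0.01, and the filled points are Map3k5, Sharpin and Tbk1.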

How the data were processed

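Whole eWAT of 3 db/db and 3 db/+ mice was profiled on 6 arrays, grouped by the labels. The scanner software was Agilent Feature Extraction 8.5.1.1, per the submitters' processing notes. The table of 23556 probes deposited by the authors holds both channels' intensity for every array, on a normalized scale in steps of 0.01 (97.3% of the values are whole steps within 1e-06). How background was corrected and the scale set is not stated there. The deposited series matrix holds log10 ratios, equal within 0.005 to log10 of the table's mouse over pool intensity. The table's db/db columns carry mouse numbers, so numbered db/db replicates come from the matrix.

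Ratios were taken as log2 of Cy5 over Cy3 without further normalization or filter. Probe names were updated through a RefSeq gene table (GRCm38.p6): 17207 probes had a current symbol, 325 were named by accession, 1790 by synonym, 2017 kept the name in the file and 2217 had none. Each gene was represented by its brightest probe measured on all 6 arrays, or else with at least 2 values per group. Groups were compared with limma 3.58.1 in R 4.3.3 (lmFit, eBayes, db/db minus db/+), adjusted over 17024 genes by Benjamini-Hochberg at a threshold of 0.05. The fit had 4 residual and 0.81 prior degrees of freedom, and was tested on simulated data. Other software was matplotlib 3.10.9, pandas 2.3.3, numpy 2.4.6 and Python 3.11.15. The small number of arrays limits the precision, and p-values rest on the spread among these mice against 1 shared lean pool. The fit takes 1 spread per gene for both groups, although the groups can differ in it. The SD of the ratios was 1.72 in db/db and 0.17 in db/+ mice for Tnfrsf19, and 0.58 and 1.0 for Tnfsf11.

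Members and lists were chosen with earlier results of these data known. The naming rule took called members, members with a log2 fold change of at least 1 in size, the 5 brightest, Tnf, Tnfrsf1a, Tnfrsf1b, Fas, Fasl, Cd40, Ltbr, Tnfaip3, Tnfsf11, members with probes of differing sign and called signalling genes. Other members, Tab3, Tank, Gpx5 and Cst8 were named after their values were seen. 1 gene is not reported here. Alternatives were other normalizations, Cy5 alone, probe and dimness filters, a replicate block, an epididymis covariate, db/db replicate 1 as the only db/db array and leaving out each array.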

Additional observations from a re-analysis of the deposited data

How the results depend on the processing

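Counts of calls depended on the setting. Against 1138 genes, 2 members and 3 signalling genes, quantile normalization of the ratios called 0, 0 and 0 in limma (2178, 4 and 2 at an unadjusted p under 0.05), and the replicate block 0, 0 and 0 (3085, 7 and 8), although the labels pair no mice and the deviations of same-numbered mice had correlations of -0.480, -0.413 and -0.023. The Cy5 channel alone called 571 genes (3.35%), 0 signalling genes (4 unadjusted) and the same 2 members (5.71%). Leaving out the dimmest 25% of genes called 1491 genes (11.7%) and 2 signalling genes (4.76%, Map3k5 and Tab3). Loess called 1192 genes (7.0%) and 1 signalling gene (2.33%, Tab3). Fitting every probe called 1275 probes (5.44%) and 1 signalling gene (2.33%, Sharpin). An epididymis marker covariate called 820 genes (4.82%), 1 member (2.86%, Tnfaip2) and 0 signalling genes (12 unadjusted). With db/db replicate 1 as the only db/db array, assumed to vary like the db/+ arrays, 1791 genes, 3 members (Tnfaip2, Tnfaip3 and Tnfsf10) and 1 signalling gene (Sharpin) were called. The db/+ ratios of Tnfaip3 and Tnfsf10 were all 0.00 by rounding, so these calls of a single array rest on no measured spread. Leaving out 1 array gave 54 to 3417 genes, 0 to 6 members and 0 to 6 signalling genes. Without db/db replicate 1 there were 3417 genes (20.2%) and 6 members (17.1%). Without db/db replicate 2 there were 249 (1.46%) and 0, and without db/db replicate 3, 576 (3.4%) and 1 (2.86%). Without db/+ replicates 1, 2 and 3 there were 169 (0.998%), 115 (0.678%) and 54 genes (0.318%) and 0 members each.

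Tnfrsf12a and Tnfsf10 kept their direction in all 15 settings. Log2 fold changes that reversed were small in most cases: Lta under quantile (0.04), loess (0.03), the covariate (0.05) and db/db replicate 1 alone (0.13); Tnf under quantile (0.08) and replicate 1 alone (0.04); Tnfrsf11b under quantile (0.03), the covariate (0.01) and replicate 1 alone (0.28); and Tnfrsf18 under Cy5 alone (-0.12), the covariate (-0.04) and replicate 1 alone (-0.18). Replicate 1 alone also reversed Tnfaip8l1 (0.07), Tnfaip8l2 (-0.04), Tnfrsf19 (-0.85) and Tnfrsf1a (0.10), and Cy5 alone reversed Tnfsf13b (-0.25), Tnfsf14 (-0.02) and Tnfsf8 (-0.13). Leaving out 1 array moved Lta between -0.07 and 0.07, Ltb between -0.44 and 0.08, Tnfrsf11b between -0.59 and 0.07, Tnfrsf18 between -0.12 and 0.17, Tnfsf13b between -0.12 and 0.09 and Tnfsf4 between -0.24 and 0.05. The cause was not tested. The 16 members at or below 0.1 on all arrays are limited by the 0.01 step of the scale.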
